A study of Mus musculus with 16 samples.

Results

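The genes that make cholesterol and fatty acids were followed in cells of the mouse coronal suture, together with the genes that control them and a contrasting group of genes of sterol efflux and its control. The list held 36 genes chosen by name for their known function, with earlier results of these data known. The array annotation gave 34 of them a probe set with 1 gene symbol, out of 22180 genes with such a probe set, and all 34 were among the 13453 genes bright enough to be tested. Of the 34, 15 encode enzymes of cholesterol synthesis, 5 encode the sterol-sensing control of the pathway, 9 belong to fatty acid synthesis and 1, Stard4, carries sterol inside the cell. The other 4, Abca1, Abcg1, Nr1h3 and Mylip, are the efflux group. Acat2 and Scd2 had no probe set with 1 symbol and are not analysed here. Scap had 2 probe sets, of which the brighter was used, and each of the other members had 1.

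RNA was measured on 16 Affymetrix whole-transcript arrays. The cells came from C57BL6 mice that were wild type or labelled Twist 1+/- (written Twist1+/- below), heterozygous for the gene of a transcription factor of skull mesenchyme. They came from 2 litters that held both genotypes, were kept apart by genotype and sex, and were expanded in flasks in Dulbecco's Modified Eagle Medium (DMEM) with fetal bovine serum. Wells then received DMEM (control) or DMEM with thyroxine, the main thyroid hormone, at 1e-06 mol per liter, and RNA was taken after 3 or 7 days. The 8 groups of genotype, medium and day held 2 arrays each, 1 from female and 1 from male cells. There was thus 1 culture for each genotype and sex, with a control and a thyroxine array on each day. The labels do not say whether wells were pooled or how many animals gave each culture. All p-values below measure the spread between these arrays, which may be technical in part, and not the spread between animals. In the main tests of days and of thyroxine they rest on how far the change differed between the female and male culture of a genotype. The 8 pairs of arrays in those tests were counted as independent but came from only 4 cultures.

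Cholesterol is built from acetyl-CoA through mevalonate, farnesyl diphosphate, squalene and lanosterol, and fatty acids are built from the same acetyl-CoA through malonyl-CoA. Sterol regulatory element binding proteins (SREBPs) switch on the genes of both pathways. When sterol is scarce, the escort protein SCAP takes them from the endoplasmic reticulum to the Golgi, where they are cut and released. When sterol is plentiful, INSIG proteins hold them back, while liver X receptors, activated by oxysterols, switch on genes of sterol export. Mesenchymal cells, osteoblasts and macrophages all use these pathways, and lipid-loaded macrophages are a well-known setting of high sterol export.

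The promoters of 5 members are shown because each carries a motif marked below and these genes were among those that changed most between days. Of the 5, only that of Hmgcs1 held the sterol regulatory element that was searched. Each is the 250 bases before the RefSeq gene start in GRCm38.p6, on the gene's strand: Hmgcs1 at chr13:119690101-119690350 (plus), Cyp51 at chr5:4104698-4104947 (minus), Fasn at chr11:120824548-120824797 (minus), Abca1 at chr4:53159896-53160145 (minus) and Mylip at chr13:45389492-45389741 (plus). Capitals mark the sterol regulatory element TCACNCCAC, the NF-Y box CCAAT on either strand, the E-box CACGTG and, in Abca1 and Fasn, a run of 18 bases that they share.
Hmgcs1: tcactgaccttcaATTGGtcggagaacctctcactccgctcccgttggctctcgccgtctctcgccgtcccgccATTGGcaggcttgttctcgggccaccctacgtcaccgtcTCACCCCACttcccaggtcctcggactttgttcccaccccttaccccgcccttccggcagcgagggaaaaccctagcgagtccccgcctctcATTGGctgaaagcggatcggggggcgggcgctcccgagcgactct
Cyp51: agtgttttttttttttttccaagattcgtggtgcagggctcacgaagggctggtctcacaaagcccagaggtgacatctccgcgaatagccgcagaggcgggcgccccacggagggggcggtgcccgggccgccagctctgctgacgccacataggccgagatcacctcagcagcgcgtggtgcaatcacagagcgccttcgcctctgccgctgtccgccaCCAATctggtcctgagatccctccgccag
Fasn: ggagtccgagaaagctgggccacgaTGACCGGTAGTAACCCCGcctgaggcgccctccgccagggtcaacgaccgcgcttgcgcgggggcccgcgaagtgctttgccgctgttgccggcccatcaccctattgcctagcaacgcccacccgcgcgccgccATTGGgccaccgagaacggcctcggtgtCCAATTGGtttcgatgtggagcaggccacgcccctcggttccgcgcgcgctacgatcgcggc
Abca1: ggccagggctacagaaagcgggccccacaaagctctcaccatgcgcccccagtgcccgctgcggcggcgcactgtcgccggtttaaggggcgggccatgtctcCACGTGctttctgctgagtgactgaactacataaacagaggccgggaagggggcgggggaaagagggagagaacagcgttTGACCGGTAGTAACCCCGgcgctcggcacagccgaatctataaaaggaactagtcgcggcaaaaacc
Mylip: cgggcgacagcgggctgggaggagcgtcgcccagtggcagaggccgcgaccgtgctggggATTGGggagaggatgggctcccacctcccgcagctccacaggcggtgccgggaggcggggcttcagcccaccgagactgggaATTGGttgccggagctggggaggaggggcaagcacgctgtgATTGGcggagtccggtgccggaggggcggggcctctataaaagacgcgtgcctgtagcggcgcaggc
RefSeq's promoter table held 28 of the 36 members. Motifs were searched on both strands of the 300 bases from 250 before to 50 after each start. In Fasn a pair of NF-Y boxes on opposite strands overlap. The NF-Y box was present in 20 of 33 promoters of synthesis and control genes (60.6%), against 37.4% of all 32851 promoters. The E-box was present in 6 of the 33 (18.2%), against 7.15% of all. The 33 promoters belong to 25 genes, among them Acat2, whose expression was not analysed. Several starts of 1 gene were counted apart. Counted by gene, the NF-Y box was in 19 of the 25, against 11096 of all 27025. The E-box was in 5 of the 25 genes, against 2187 of all. The sterol regulatory element, searched as exact letters, was in 1 of the 33, that of Hmgcs1, which is 3.03% against 1.24% of all. The liver X receptor repeat, AGGTCA in 2 copies spaced by 4 bases, was in 0 of the 37 member promoters and in 0.0152% of all. The run shared by Abca1 and Fasn began 67 and 225 bases before their starts and was in no other promoter of the table. It differs from that repeat at 3 of 12 letters, and 37.8% of member promoters and 21.9% of all held a window at least as close. The run was looked for after the sequences had been seen. These matches describe letters and not bound sites.

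The wild-type male culture stood apart and has to be known before the changes are read. Lists of cell type markers showed it plainly. The mean log2 level of 15 macrophage markers was 9.42 in both wild-type male arrays at 3 days, against 7.63 to 8.47 in the 6 arrays of the other cultures. At 7 days it was 9.48 to 9.76 there and 9.37 to 9.56 in the others. The mean of 12 fibroblast and suture markers was 9.07 to 9.31 in the wild-type male arrays and 9.94 to 10.28 in the others. Not every marker of that list was lower there. S100a4 read 10.86 and 10.97 in wild-type male arrays at 3 days, against 10.10 to 10.58 in the others. At 7 days it read 10.51 and 10.94, against 9.24 to 9.80, and Vim read 12.91 and 12.88, against 12.50 to 12.67. Of 6 measured osteoblast markers, Sp7, Bglap, Ibsp and Dmp1 had a mean below the level required for testing, while Alpl (4.69 to 5.84) and Col1a1 (11.75 to 12.93) were above it. Of 9 measured adipocyte markers, Adipoq, Lep and Cidec were below it and 6 were above, among them Lpl (6.09 to 8.55) and Fabp4 (4.19 to 6.41). Twist1 did not separate the genotypes. It ran from 6.51 to 7.55 in the 8 Twist1+/- arrays, from 6.97 to 7.70 in wild-type female arrays and from 6.07 to 6.54 in wild-type male arrays (difference 0.32, SE 0.27, limma adjusted p = 0.9367). The genotype names below are therefore those of the labels. The position of its probes relative to the altered part of the gene was not looked at here.

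Between 3 and 7 days in culture, genes of cholesterol and fatty acid synthesis fell and genes of sterol efflux rose. Over the 8 pairs of a 3-day and a 7-day array of the same culture and medium, 18 of the 30 synthesis, control and transport genes fell, 2 rose and 10 did not pass an adjusted p of 0.05. Of the 4 efflux genes 3 rose. Among all 13453 genes 9.80% fell and 10.9% rose. The median log2 difference, 7 minus 3 days, was -0.34 for the 30 genes, 0.74 for the efflux genes and -0.02 for all genes. These tests used limma with the pair as a block and Benjamini-Hochberg adjustment over all genes. In a mixed culture, fewer cells of a type and less RNA per cell cannot be told apart.

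**Figure D1:**
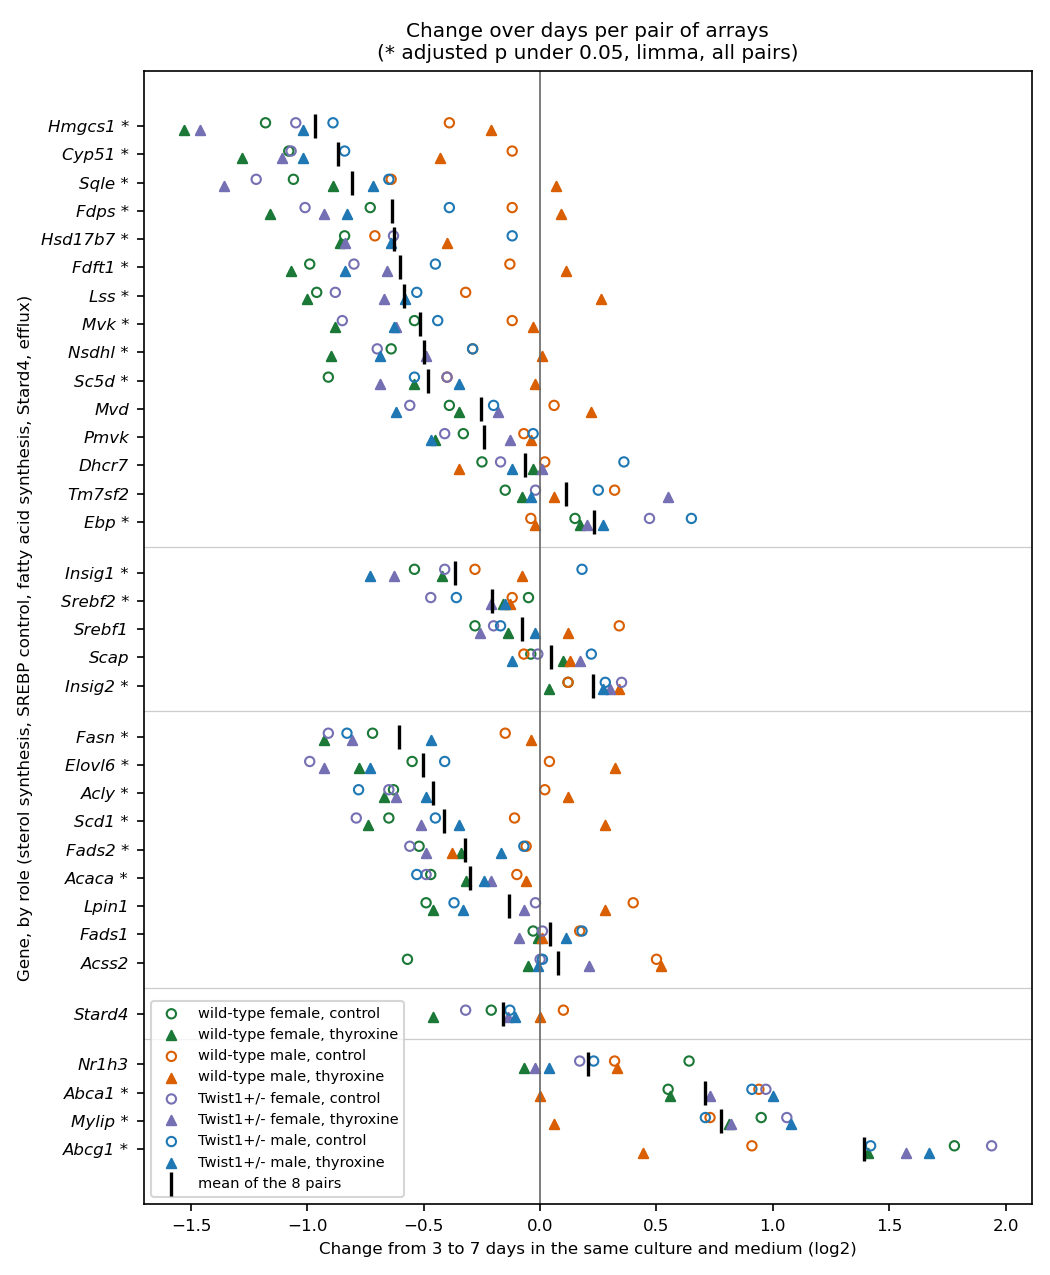
Change from 3 to 7 days in log2 units (x axis) for each of the 34 measured genes (y axis, grouped by role), with 1 point for each of the 8 pairs of arrays, a bar at their mean and a star where limma's adjusted p was under 0.05. For Hmgcs1 the wild-type male pairs, at -0.39 and -0.21, lie nearest 0, and Abcg1 was higher at 7 days in all 8 pairs.

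The entry into the pathway changed most. Hmgcs1 encodes the synthase that makes HMG-CoA, the first committed intermediate. In control medium its log2 level at 3 days was 8.99 in Twist1+/- female, 9.08 in Twist1+/- male, 8.99 in wild-type female and 8.25 in wild-type male cells. With thyroxine it was 9.11, 8.80, 9.14 and 8.24 in the same order. At 7 days it was 7.94, 8.19, 7.81 and 7.86 in control medium and 7.65, 7.78, 7.61 and 8.03 with thyroxine. All 8 arrays at 7 days were below all 8 at 3 days, and the wild-type male arrays were the lowest at 3 days. The difference was -0.97 (SE 0.14, limma adjusted p = 0.001024), which is 1.95-fold lower at 7 days. The 3 enzymes that act on mevalonate moved less. Mvk, the mevalonate kinase, fell by 0.51 (limma adjusted p = 0.005245). Pmvk and Mvd, which phosphorylate and then decarboxylate its product, gave -0.24 and -0.25 and did not pass (limma adjusted p = 0.06916 and 0.08653).

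The enzymes that lead from farnesyl diphosphate to lanosterol all fell. Fdps, which makes farnesyl diphosphate, ran from 8.20 to 8.61 at 3 days and from 7.34 to 7.81 at 7 days outside the wild-type male culture. Its wild-type male arrays read 7.93 and 8.02 at 3 days and 7.81 and 8.11 at 7 days, so they did not separate by day. Over all pairs Fdps fell by 0.64 (SE 0.13, limma adjusted p = 0.006807). Fdft1, the squalene synthase, had a median of 9.32 at 3 days (8.69 to 9.53) and of 8.62 at 7 days (8.41 to 8.80). The ranges overlap through the wild-type male arrays alone, since outside that culture they were 9.19 to 9.53 and 8.41 to 8.74. Fdft1 fell by 0.60 (SE 0.13, limma adjusted p = 0.008055). Sqle, the squalene epoxidase, had a median of 7.78 at 3 days (7.35 to 8.01) and of 6.92 at 7 days (6.57 to 7.42). It was lower at 7 days in 7 of 8 pairs, the exception being the wild-type male pair with thyroxine at 0.07. Sqle fell by 0.81 (SE 0.12, limma adjusted p = 0.001249). Lss, which closes the rings to give lanosterol, fell by 0.58 (SE 0.13, limma adjusted p = 0.008953).

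Of the enzymes that turn lanosterol into cholesterol, some fell, 1 rose and others gave small values. Cyp51, the lanosterol demethylase, had a median of 8.08 at 3 days (7.37 to 8.17) and of 7.06 at 7 days (6.83 to 7.25). Its days did not overlap in any culture. Cyp51 fell by 0.87 (SE 0.12, limma adjusted p = 0.0008535). Hsd17b7 and Nsdhl act in the removal of methyl groups that follows. Hsd17b7 ran from 7.55 to 8.22 at 3 days and from 6.73 to 7.82 at 7 days, with medians of 7.68 and 7.12. It was lower at 7 days in all 8 pairs and fell by 0.63 (SE 0.08, limma adjusted p = 0.0007431). Its wild-type male arrays were the highest at 3 days, at 8.00 and 8.22, while the other 6 lay between 7.55 and 7.93. Nsdhl fell by 0.50 (limma adjusted p = 0.005586) and Sc5d, a desaturase late in the pathway, fell by 0.48 (limma adjusted p = 0.002518). Ebp, the sterol isomerase that acts just before Sc5d, rose by 0.23 (SE 0.06, limma adjusted p = 0.02158) and was higher in 6 of 8 pairs. The reductases Dhcr7 and Tm7sf2 gave -0.07 and 0.11 and did not pass. In all, 10 of the 15 cholesterol enzymes fell and 1 rose, with a median difference of -0.51.

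Of the 9 fatty acid genes 6 fell and 3 did not pass, with a median difference of -0.32. Acly, which makes cytosolic acetyl-CoA from citrate, fell by 0.46 (limma adjusted p = 0.006986). Acaca, which makes malonyl-CoA, fell by 0.30 (limma adjusted p = 0.01085). Fasn, the fatty acid synthase, had a median of 8.89 at 3 days (8.68 to 9.12) and of 8.21 at 7 days (8.01 to 8.84). Its 7-day arrays outside the wild-type male culture stopped at 8.27, and the wild-type male arrays were at 8.70 and 8.84. Fasn fell by 0.61 (SE 0.10, limma adjusted p = 0.002177). Elovl6, which lengthens palmitate, fell by 0.50 (limma adjusted p = 0.01476). Scd1, the stearoyl-CoA desaturase, fell by 0.42 (limma adjusted p = 0.0206), and Fads2, a desaturase of polyunsaturated fatty acids, fell by 0.32 (limma adjusted p = 0.01468). Its partner Fads1 had a median of 9.71 at 3 days (9.37 to 9.85) and of 9.75 at 7 days (9.38 to 9.95). The difference of Fads1 was 0.04 with a 95% interval of -0.08 to 0.17. Acss2, which makes acetyl-CoA from acetate, and Lpin1, a phosphatidate phosphatase, gave 0.08 and -0.13.

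The control genes moved little. Srebf2, which encodes the SREBP that acts mainly on cholesterol genes, had a median of 8.70 at 3 days (8.36 to 8.87) and of 8.40 at 7 days (8.23 to 8.71). The days overlapped, but all 8 pairs were lower at 7 days. Srebf2 fell by 0.21 (SE 0.05, limma adjusted p = 0.01977). Srebf1, which encodes the SREBPs that act more on fatty acid genes, gave -0.08 with a 95% interval of -0.25 to 0.10. Scap gave 0.05. The 2 INSIG genes went opposite ways. Insig1, itself a target of SREBPs, fell by 0.36 (SE 0.08, limma adjusted p = 0.008194). Insig2 rose by 0.23 (SE 0.07, limma adjusted p = 0.03387) and was higher in all 8 pairs. Stard4, also a target of SREBPs, gave -0.16 and did not pass (limma adjusted p = 0.2184).

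**Figure D2:**
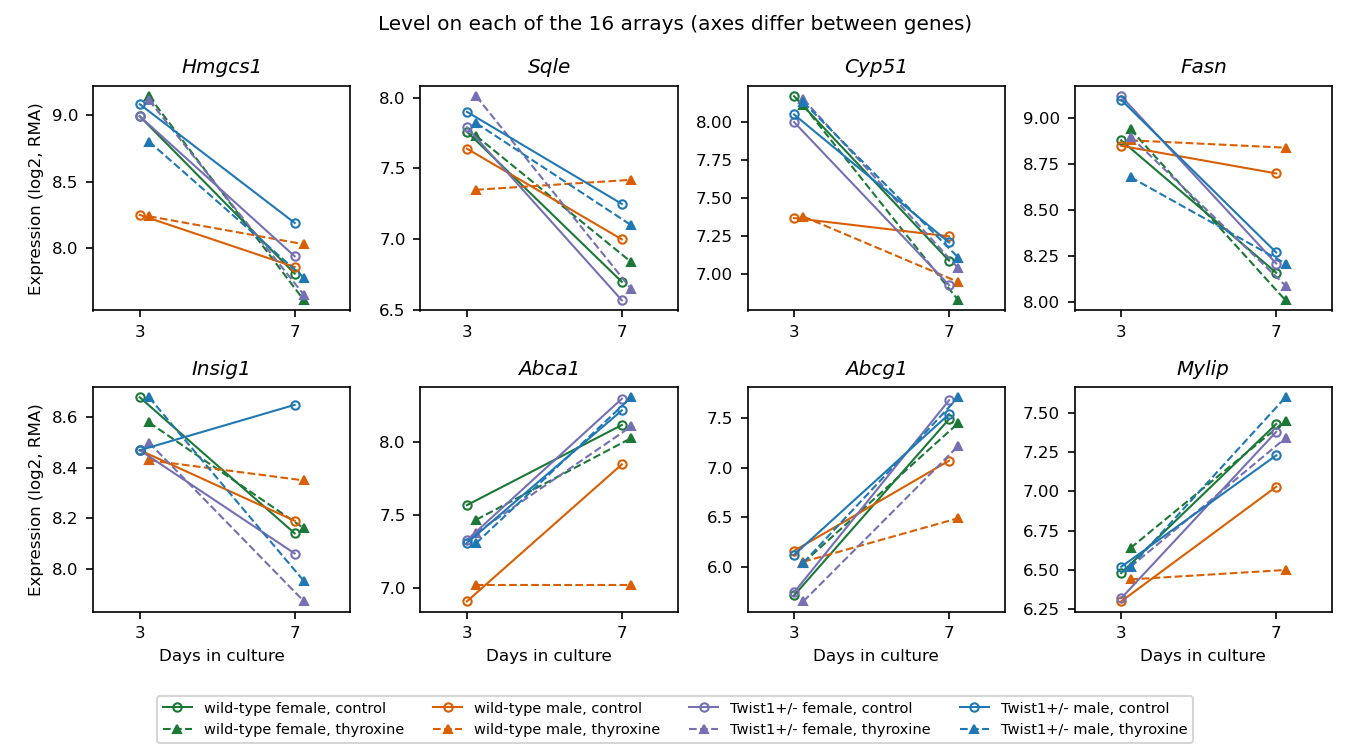
Log2 level (y axis) on each of the 16 arrays at 3 and 7 days (x axis) for Hmgcs1, Sqle, Cyp51, Fasn, Insig1, Abca1, Abcg1 and Mylip, with lines joining arrays of the same culture and medium. For Hmgcs1, Cyp51 and Abcg1 no array of 1 day reaches into the range of the other day.

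Efflux genes rose over the same days. Abcg1, an exporter of sterol to lipoproteins, read 5.74 in Twist1+/- female, 6.12 in Twist1+/- male, 5.71 in wild-type female and 6.16 in wild-type male control cells at 3 days. With thyroxine it read 5.65, 6.04, 6.04 and 6.05 in that order. At 7 days the control values were 7.68, 7.54, 7.49 and 7.07 and the thyroxine values 7.22, 7.71, 7.45 and 6.49. The days did not overlap, and the wild-type male arrays were the lowest at 7 days. Abcg1 rose by 1.39 (SE 0.13, limma adjusted p = 0.0003196), which is 2.62-fold. Abca1, which loads sterol on lipid-poor apolipoproteins, had a median of 7.32 at 3 days (6.91 to 7.57) and of 8.11 at 7 days (7.02 to 8.31). It was higher in 7 of 8 pairs and did not differ in the wild-type male pair with thyroxine, at 7.02 on each day. Abca1 rose by 0.71 (SE 0.08, limma adjusted p = 0.0005623). Mylip, a ubiquitin ligase that marks the low-density lipoprotein receptor for breakdown, had a median of 6.50 at 3 days (6.30 to 6.64) and of 7.36 at 7 days (6.50 to 7.60). Mylip rose by 0.78 (SE 0.09, limma adjusted p = 0.0006309). Nr1h3, which encodes liver X receptor alpha, had a median of 4.57 at 3 days (4.41 to 4.72) and of 4.72 at 7 days (4.53 to 5.26). Nr1h3 gave 0.20 and did not pass (SE 0.09, limma adjusted p = 0.1288).

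Separation of the days by level gave the same picture. Of the 34 members, 2 (Hmgcs1 and Cyp51) had all 8 arrays at 7 days below all 8 at 3 days, as did 0.505% of all genes, and Abcg1 had all above, as did 0.974%. Outside the wild-type male culture 18 members were lower without overlap, against 5.43% of all genes. They were 12 cholesterol enzymes and 6 fatty acid genes, and included Mvd and Pmvk. Abca1, Abcg1 and Mylip were higher without overlap, against 7.65% of all genes. In these 6 pairs 22 of the 30 synthesis, control and transport genes were lower in every pair, as were 14.0% of all genes, and in all 8 pairs 10 of them were, as were 5.75% of all genes.

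The day differences were then read within each genotype. In Twist1+/- cells 17 of the 30 genes fell and 1 rose, and Abca1, Abcg1 and Mylip rose, against 6.35% of all genes lower and 10.5% higher. In wild-type cells 1 gene fell (Hsd17b7, -0.70, SE 0.11, limma adjusted p = 0.02454) and 1 rose (Abcg1, 1.14, SE 0.18, limma adjusted p = 0.02293), against 0.483% and 0.453% of all genes. Hmgcs1 gave -1.10 in Twist1+/- and -0.83 in wild-type cells (limma adjusted p = 0.003813 and 0.07198). The difference between the genotypes was itself tested. It passed for 0 members and for 0% of all genes with limma, with 2 members and 1273 genes at an unadjusted p under 0.05. The member differences, Twist1+/- minus wild type, ran from -0.52 to 0.52, with 95% intervals that reached from -1.06 to 1.07. Leaving out the wild-type male culture gave 16 members that fell and 3 that rose in wild-type cells, where 11.8% of all genes passed.

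Each culture was also fitted alone, a comparison added after the values had been seen. Of the 30 genes 17 fell in Twist1+/- female cells, 13 fell and 1 rose in Twist1+/- male cells and 16 fell in wild-type female cells, where 14.8%, 11.6% and 12.9% of all genes passed in either direction. In wild-type male cells 0 of the 30 passed, with 5 at an unadjusted p under 0.05, against 0.617% of all genes passing with limma. The median difference of the 30 genes was -0.52, -0.38, -0.48 and -0.03 in the same order. The 3 efflux genes Abca1, Abcg1 and Mylip passed in each of the first 3 cultures. In wild-type male cells 0 of 4 efflux genes passed with limma, with 3 at an unadjusted p under 0.05. All 4 were higher at 7 days there, by 0.33 to 0.68. The median difference of the 4 efflux genes was 0.895, 0.925, 0.718 and 0.433 in the same order of cultures. These per-culture p-values rest on 2 pairs of 1 culture each, 1 in control medium and 1 with thyroxine. The residual spread was pooled over all 4 cultures.

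The change of the wild-type male culture minus the mean change of the others was also tested. This comparison too was added after the values had been seen, and its p-values rest on 2 pairs of 1 culture on the wild-type male side. It passed for 13 of 34 members, against 6.60% of all genes. For 12 synthesis genes the day difference was less negative or of the other sign in wild-type male cells, from Elovl6 (0.91 more, SE 0.14, limma adjusted p = 0.0008872) and Hmgcs1 (0.89, SE 0.14, limma adjusted p = 0.001395) to Mvk (0.58). For Abcg1 it was smaller by 0.96 (log2 -0.96, SE 0.18, limma adjusted p = 0.004521). Levels at 3 days differed too. Both wild-type male arrays lay below the 6 others at 3 days for 20 of the 30 genes, as they did for 18.0% of all genes, and above for Hsd17b7 alone (15.7% of all genes). At 7 days they lay below for 2 of the 30 (Ebp and Fads1, against 13.3% of all) and above for 4 (Nsdhl, Fasn, Acly and Elovl6, against 10.3%). At 7 days Abca1, Abcg1 and Mylip also lay below.

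**Figure D3:**
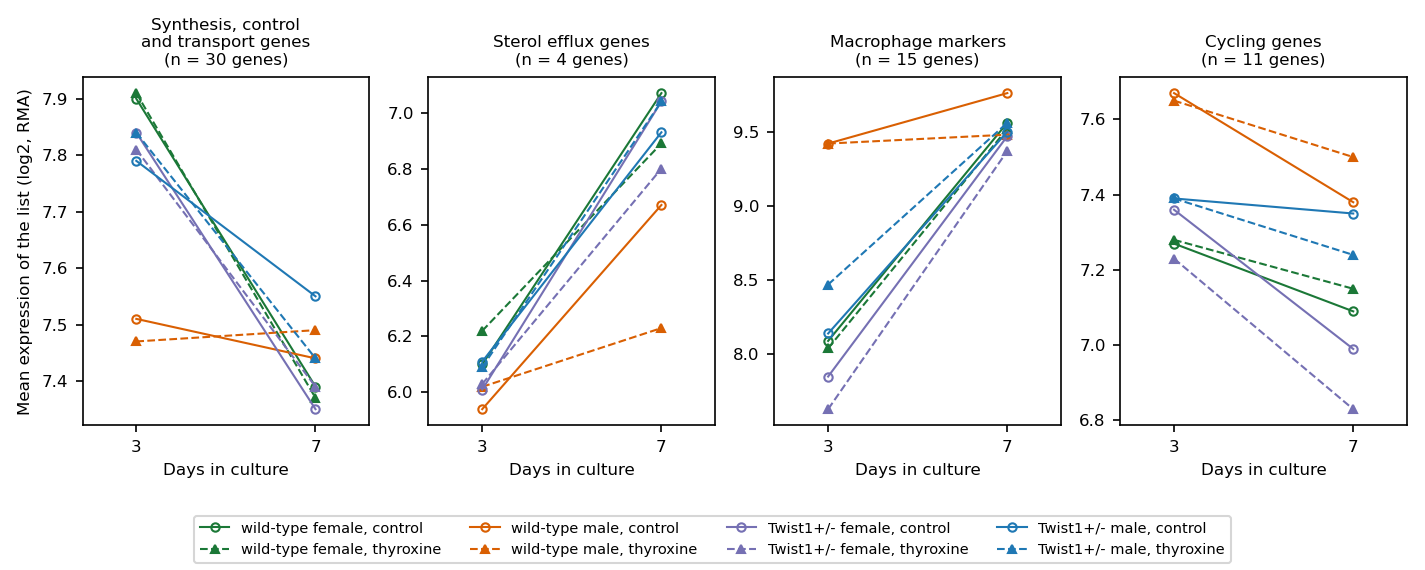
Mean log2 level (y axis) of the 30 synthesis, control and transport genes, the 4 efflux genes, 15 macrophage markers and 11 cycling genes on every array at 3 and 7 days (x axis), with lines joining arrays of the same culture and medium. The synthesis mean of the wild-type male arrays, 7.47 to 7.51 at 3 days, sits within the range of 7.35 to 7.55 that the other cultures had at 7 days.

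Some cell type markers also changed over these days. The mean level of the 30 genes was 7.79 to 7.91 at 3 days and 7.35 to 7.55 at 7 days outside the wild-type male culture, and 7.47 to 7.51 and 7.44 to 7.49 in it. The mean of the 4 efflux genes was 6.01 to 6.22 at 3 days and 6.80 to 7.07 at 7 days outside that culture, and 5.94 to 6.02 and 6.23 to 6.67 in it. All 14 tested macrophage markers of 16 listed rose between days, by 0.89 to 1.54 with a median of 1.21; Cd163 lay below the level required for testing. C1qa rose by 1.43 and Trem2 by 1.49 (limma adjusted p = 0.0006635 and 0.0008019). Of 11 cycling genes 5 fell, Mki67 by 0.52, with a list median of -0.26. Of 12 fibroblast and suture markers 3 fell, S100a4 by 0.59, Vim by 0.23 and Pdgfrb by 0.17. The other 9 did not pass, and the list median was -0.06. The 2 tested osteoblast markers fell, Alpl by 0.40 and Col1a1 by 0.20. Of 6 tested adipocyte markers Lpl and Cebpa rose by 0.49 and 0.25. The other 4 did not pass, among them Pparg at -0.24 and Plin4 at -0.21. Among all genes 9.80% fell and 10.9% rose between days. The part of these cell types and of cell division in the changes of the lipid genes was not tested.

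Other genes of lipid handling were taken from lists of the same pathways. Of 6 further cholesterol synthesis genes 3 fell: Msmo1, which works beside Nsdhl, by 0.53, the acetoacetyl-CoA synthetase Aacs by 0.52 and Pgrmc1 by 0.24. Tmem97 gave -0.16. Of 11 further genes of SREBP control 0 passed with limma, with 3 at an unadjusted p under 0.05; the NF-Y subunits Nfya and Nfyc gave 0.23 and -0.26. Of 15 further genes of fatty acid and glyceride synthesis 2 fell, Aacs again and the malic enzyme gene Me1 (-0.40), and 2 rose, Agpat2 (0.37) and Hacd2 (0.53). With 9.80% of all genes lower and 10.9% higher, the counts of these 15 genes lie near the background. The 3 of 6 further cholesterol synthesis genes that fell are a larger share than the background, in a short list. Of 14 genes of sterol uptake, storage and export 6 rose and 1 fell. Among them Apoe, a lipoprotein component, rose by 1.09 (limma adjusted p = 0.0007431) and Pltp, which transfers phospholipid, by 1.00 (limma adjusted p = 0.0004749). Lipa, the lysosomal lipase, rose by 0.81 and Nceh1, a cholesteryl ester hydrolase, by 0.50. In the wild-type male arrays at 3 days Apoe read 7.05 and 7.03, against 5.48 to 5.68 in the other 6. Lipa read 10.78 and 10.84 there, against 9.63 to 9.93, and Nceh1 8.27 and 8.29, against 7.40 to 7.73. Pltp read 8.90 and 8.63, against 8.68 to 9.34. For Apoe, Lipa and Nceh1 these 2 arrays were thus above the other 6, as they were in the mean of the macrophage markers, and the part of macrophages was not tested. Of 10 genes of fatty acid oxidation Pdk4, a kinase that restrains pyruvate oxidation, fell by 0.46 and Acadm, a mitochondrial dehydrogenase, rose by 0.26, again near the background.

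The thyroxine label was checked on 2 known targets. Klf9, a transcription factor gene induced by thyroid hormone, was higher with thyroxine in 8 of 8 pairs of arrays of the same culture and day, by 0.30 to 0.86. Over all pairs Klf9 rose by 0.56 (SE 0.06, limma adjusted p = 0.00458). It kept this direction in 18 of 18 alternative fits and its call in 13, with limma adjusted p from 0.0007566 to 0.2679. The call was lost without the intensity trend, with no replicate block, without the wild-type male culture, without the Twist1+/- control arrays at 7 days and on leaving out the 3-day pair of wild-type female cells (0.1195, 0.2679, 0.08219, 0.09306 and 0.08288 in that order). Hr, another target, was higher in 8 of 8 pairs, by 0.37 on average, but did not pass (limma adjusted p = 0.385).

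No member passed for thyroxine. Over all pairs the 34 differences, thyroxine minus control, ran from -0.12 to 0.13, and 0 passed with limma, with 1 at an unadjusted p under 0.05, against 0.0966% of all genes passing. The 95% intervals of the members reached from -0.29 to 0.29 in log2 units. The smallest p-values belonged to Sc5d (0.13), Insig2 (-0.12), Srebf2 (0.09) and Fasn (-0.09), and the lowest limma adjusted p was 0.7895. Insig2 was lower with thyroxine in 7 of 8 pairs.

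The genotypes and days were also tested apart. In wild-type cells Sc5d gave 0.25, Abca1 -0.23, Cyp51 -0.15 and Hsd17b7 0.18, and 0 members passed with limma (1 at an unadjusted p under 0.05), against 0.0149% of all genes. In Twist1+/- cells Fasn gave -0.20, Hmgcs1 -0.22, Srebf2 0.15 and Insig1 -0.16, and 0 passed (3 at an unadjusted p under 0.05, limma), against 0.201% of all genes. The difference between genotypes passed for 0 members with limma (3 at an unadjusted p under 0.05) and for 0.0595% of genes. Its largest member values, Twist1+/- minus wild type, were Mvd at 0.32, Hsd17b7 at -0.27, Sc5d at -0.25 and Hmgcs1 at -0.24. At 3 days 0 members and 0% of genes passed with limma, with 0 members and 410 genes at an unadjusted p under 0.05. There Fasn gave -0.14, Insig2 -0.13, Mylip 0.12 and Lpin1 0.10. At 7 days 0 members passed with limma (2 at an unadjusted p under 0.05), against 0.156% of genes. There Sc5d gave 0.21, Abca1 -0.26, Hmgcs1 -0.18 and Insig1 -0.18. Whether the change between days differed between media was tested as well, and 0 members and 0% of genes passed that test with limma, with 0 members and 408 genes at an unadjusted p under 0.05. The medium differences of the members ran from -0.27 to 0.19, with 95% intervals that reached from -0.80 to 0.74.

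**Figure D4:**
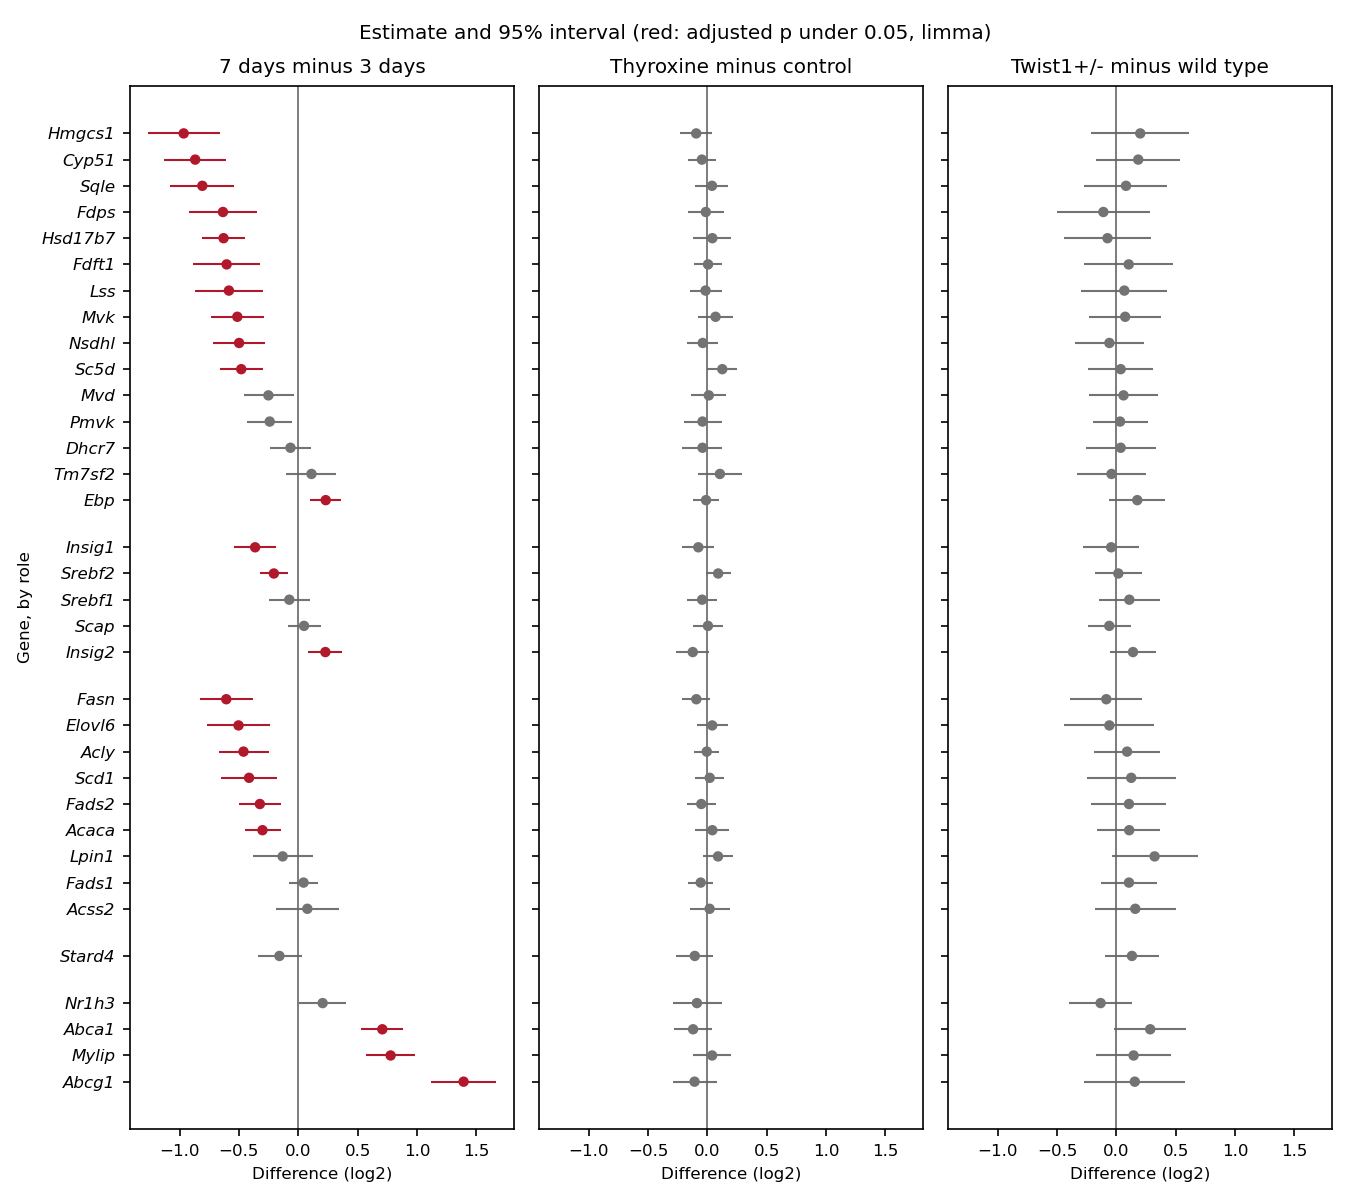
Log2 difference with its 95% interval (x axis) for the measured members (y axis) between days, with thyroxine and between genotypes. Intervals of the day difference exclude 0 for 22 of 30 synthesis, control and transport genes and for 4 of 4 efflux genes, while the thyroxine differences lie between -0.12 and 0.13.

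Between genotypes no member passed either. Genotype differs only between cultures, 2 against 2, so the comparison rests on few cultures and includes the wild-type male culture that stood apart. Over both media and days the differences, Twist1+/- minus wild type, ran from -0.13 to 0.32, with 95% intervals that reached from -0.50 to 0.69. Of the members 0 passed with limma, and 0% of all genes did, with 0 members and 619 genes at an unadjusted p under 0.05. The smallest p-values belonged to Abca1 (0.28), Lpin1 (0.32), Ebp (0.18), Insig2 (0.14) and Stard4 (0.13). With the wild-type male culture left out, Abca1 gave -0.02 and Ebp -0.09. At 3 days Lpin1 gave 0.39, Acly 0.26, Cyp51 0.32, Hmgcs1 0.34 and Sqle 0.26, with 0 members and 0% of genes passing with limma (0 members and 699 genes at p under 0.05 before adjustment). With that culture left out, Cyp51 gave -0.10, Hmgcs1 -0.09, Lpin1 -0.07 and Acly -0.01 at 3 days. At 7 days Abca1 gave 0.48, Ebp 0.34, Insig2 0.21, Abcg1 0.41 and Mylip 0.28, again with 0 members and 0% of genes passing with limma (2 members and 989 genes at an unadjusted p under 0.05). Without that culture Abcg1 gave -0.07 and Mylip -0.09 at 7 days. Wild-type male arrays alone held the lowest level of Abca1 on each day.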

How the data were processed

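The authors deposited log2 values for each probe set, computed by RMA; the submitters' processing notes name Affymetrix Expression Console and give no version. RMA sets all arrays to the same distribution, so a shift of all genes on an array could not be seen. Of 41345 probe sets, 23521 had 1 gene symbol in the platform annotation, 1814 several and 16010 none. The brightest probe set of each of 22180 genes was used, and the 13453 whose mean reached 3.905 (percentile 40) were tested.

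Tests used limma 3.58.1 in R 4.3.3 (intensity trend, two-sided, Benjamini-Hochberg over all tested genes). For days and for thyroxine the pair of arrays of 1 culture was a fixed block (residual degrees of freedom 4), and for genotype the culture was a random block (statmod 1.5.0, correlation 0.202). Both days of a genotype, sex and medium come from 1 culture, per the labels' protocols. Across genes, the male minus female differences at 3 and 7 days correlated at 0.572 and 0.558 in wild-type and at 0.14 and 0.353 in Twist1+/- cells (control, thyroxine). Array number and signal near background limit the precision.

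The members, lists, motifs and tests were chosen with earlier results of these data known. Values on every array or their ranges are given for members with the largest day differences (up to 8), the efflux genes and the brightest member of each role. For thyroxine and genotype, up to 5 members with the smallest p are named, and up to 4 genes of each other list. The fits per culture were added after the values were seen. Alternatives were the filter, the trend, robust estimation, centring, probe set choice, the block and leaving out pairs or cultures.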

Additional observations from a re-analysis of the deposited data

Results flagged for a closer look

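Pair differences of single members were searched for 1 value far from the other 7, in 68 sets of 8, where chance flags about 1 in 20. Between days, the wild-type male pair with thyroxine stood apart for Abca1, at 0 with the nearest pair at 0.55, and for Mylip, at 0.06 with the nearest at 0.71. For thyroxine at 7 days, the same wild-type male culture stood apart for Abca1, at -0.83 with the nearest pair at -0.19, and for Mylip, at -0.53 with the nearest at -0.04. All 4 values share the wild-type male thyroxine array at 7 days. For Insig1 the Twist1+/- male pair at 7 days gave -0.70 with thyroxine, with the nearest pair at -0.19. For Acss2 the wild-type female pair at 3 days gave -0.38, with the nearest at -0.01.

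The day difference of the wild-type male culture minus that of the others passed for 13 members in a test added after the values were seen (limma). It was 0.91 for Elovl6, 0.89 for Hmgcs1, 0.83 for Fdps, 0.79 for Fdft1, 0.79 for Cyp51, 0.74 for Lss, 0.71 for Acly and 0.70 for Sqle. It was 0.68 for Fasn, 0.67 for Scd1, 0.63 for Lpin1, 0.58 for Mvk and -0.96 for Abcg1. Macrophage markers were higher in that culture at 3 days, and their part in the difference was not tested.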

How the results depend on the processing

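Of the 23 members that passed between days, 15 to 23 kept their call under each of 11 alternatives. The count was 15 without the Twist1+/- control arrays at 7 days and their pairs, and 17 to 22 when 1 pair was left out. Counting members that newly passed as well, 17 to 24 passed when 1 pair was left out. The block matters in part: with no replicate block 18 kept their call, with culture as a fixed replicate block 23 and as a random one 22. For wild type the count of 2 became 0 without the intensity trend, 0 with no replicate block, 8 with culture as a fixed replicate block, 0 with it as a random one, 19 without the wild-type male culture and 0 without the Twist1+/- control arrays. It ran from 0 to 16 when 1 pair was left out. For Twist1+/- the count of 21 became 0 without the Twist1+/- control arrays, which leaves 1 medium, and ran from 4 to 23 when 1 pair was left out. The count of 13 for the wild-type male culture ran from 1, without its thyroxine pair, to 15. Counts of members for thyroxine, genotype and the differences between genotypes and media remained 0 under every alternative run. Over all genes the day count of 2789 ran from 1428 without the Twist1+/- control arrays to 3507 without the wild-type male culture, and the genotype counts of 0 became 310 (both days), 90 (3 days) and 188 (7 days) without that culture. The sign turned for Scap between days with the mean of its probe sets (-0.01), for Acss2 without the wild-type male culture (-0.13) or 1 pair (-0.06 to 0.21) and for Srebf1 without 1 pair (-0.15 to 0). Without the wild-type male culture it also turned for Hsd17b7 with thyroxine in wild type (-0.02) and, between genotypes, for Abca1 (-0.02) and Ebp (-0.09) over both days, for Lpin1 (-0.07), Acly (-0.01), Cyp51 (-0.10) and Hmgcs1 (-0.09) at 3 days and for Abcg1 (-0.07) and Mylip (-0.09) at 7 days. Without the Twist1+/- control arrays Insig1 with thyroxine gave 0.12 in Twist1+/- cells and 0.09 at 7 days. The cause was not tested. The median day difference of the 30 genes was -0.48 in wild-type female, -0.38 in Twist1+/- male and -0.03 in wild-type male cells. The wild-type male culture is the only 1 of its genotype and sex. What is particular to that culture cannot be told apart from the combination of this genotype and this sex.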
